A study of Homo sapiens with 10 samples.

Results

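PAX6, OTX2, OTX1, SIX3, SIX6, RAX, LHX2, MEIS1 and MEIS2 encode transcription factors that bind DNA through a homeodomain, and they were followed here in a line of retinal pigment epithelial cells. They are 9 of the 19974 protein-coding genes on chromosomes 1 to 22 and X of the RefSeq annotation. They were chosen by name as regulators of the eye field, with earlier results of these data known. Each was examined as its gene model plus 50 kb to each side, called its locus below. The 9 loci span 1.33 Mb, and no member was removed by a filter.

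The gene models differ widely in length. The longest are MEIS2 (gene ID 4212, chr15:36889204-37101311, minus strand, 212108 bp) and MEIS1 (4211, chr2:66435125-66573869, plus, 138745 bp). PAX6 (5080, chr11:31789026-31817961, minus) spans 28936 bp and LHX2 (9355, chr9:124011768-124033301, plus) 21534 bp. The others are compact, OTX2 (5015, chr14:56799905-56810479, minus), OTX1 (5013, chr2:63049735-63057831, plus), RAX (30062, chr18:59267038-59273454, minus), SIX3 (6496, chr2:44941702-44946071) and SIX6 (4990, chr14:60509146-60512850, plus). A count of peaks inside a model therefore favours the MEIS genes, and coverage below is given per length.

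The eye field is the patch of anterior neural plate from which both eyes arise, and it is marked by the joint expression of PAX6, RAX, SIX3, SIX6 and LHX2. OTX2 and OTX1 pattern the forebrain in which the field forms, and OTX2 acts again in the pigment epithelium and in photoreceptors. MEIS1 and MEIS2 belong to the TALE class, which bind DNA together with PBX proteins and regulate PAX6 in the lens and retina. Several of these genes have long flanks that hold enhancers, and those of PAX6 lie partly within introns of its neighbour ELP4.

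CUT&Tag directs a transposase to an antibody target in permeabilised cells, so that sequenced fragments pile up where the target sits. The cells were hTERT-RPE1, human retinal pigment epithelial cells immortalised with telomerase, with the genotype WT, and all samples share that background. One antibody recognised the polymerase that transcribes protein-coding genes, in its form with phosphate on serine 5 of the C-terminal repeat (Pol II below), in 6 libraries. This form gathers at promoters. The other recognised histone H3 monomethylated on lysine 4 (H3K4me1), a mark of enhancers and of the flanks of promoters, in 4 libraries. The authors merged libraries that share an R number, which leaves 2 peak lists per target, called list 1 and list 2. No treatment, time course or other cell type is among the samples used here, so the members are read against the other genes in the same lists. The lists come from bulk cells, in which a weak signal in many cells and a strong one in few cells cannot be told apart.

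Each peak carries the authors' fold enrichment and the -log10 of its q value, and both are used below only to describe peaks. Peaks that recur between the lists of one target were merged, and each such merged stretch is called a region. An end of a gene bears a target when peaks of both lists lie within 1 kb of it. The strand and start sites came from the RefSeq promoter table for GRCh38.p14, which listed 18 starts for 8 of the 9 members, with no entry for SIX3.

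Sequence just before the start is shown for the members on which the results turn, read 5′ to 3′ on the strand of the gene. Capitals mark matches to 5 short motifs described further on. The MEIS1 start lay under Pol II in both lists, and its 150 bases are chr2:66434975-66435124 on the plus strand of GRCh38.p14. The RAX start (letters from chr18:59273455-59273604, minus strand) and the LHX2 start (chr9:124011618-124011767, plus strand) lay under H3K4me1 in both lists and under Pol II in neither. SIX6 (chr14:60508996-60509145, plus strand) and the outermost PAX6 start (chr11:31817962-31818111, minus strand) lay under no peak of either target. The 30 bases before each of the PAX6 starts that did carry Pol II are chr11:31806002-31806031 and chr11:31812721-31812750, both on the minus strand.
MEIS1: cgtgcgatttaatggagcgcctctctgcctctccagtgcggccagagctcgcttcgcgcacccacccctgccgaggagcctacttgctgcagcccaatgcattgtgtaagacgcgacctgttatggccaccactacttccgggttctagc
RAX: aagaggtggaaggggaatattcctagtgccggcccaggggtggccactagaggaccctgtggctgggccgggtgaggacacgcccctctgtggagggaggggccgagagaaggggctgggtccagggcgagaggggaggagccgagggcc
LHX2: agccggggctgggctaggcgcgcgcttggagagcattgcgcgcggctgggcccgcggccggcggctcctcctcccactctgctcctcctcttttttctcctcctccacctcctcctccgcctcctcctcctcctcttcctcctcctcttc
SIX6: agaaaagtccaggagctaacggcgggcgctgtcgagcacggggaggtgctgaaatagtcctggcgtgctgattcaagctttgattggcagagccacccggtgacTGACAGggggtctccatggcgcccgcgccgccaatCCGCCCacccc
PAX6 outermost start: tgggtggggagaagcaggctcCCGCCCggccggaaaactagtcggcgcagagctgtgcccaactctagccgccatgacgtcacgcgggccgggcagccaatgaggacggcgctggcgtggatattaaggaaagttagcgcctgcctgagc
PAX6 start at 31806001: gttgagcgagaaggaggcccctttgggctt
PAX6 start at 31812720: gccctattccccctcgccctgtcctggggt

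Recurring Pol II lay at an end of 3 of the 9 members, SIX3, MEIS1 and MEIS2, against 39.4% of the protein-coding genes. OTX2 and OTX1 had a Pol II peak at an end in list 1 only, so list 1 alone would give 5 members and list 2 alone 3, and PAX6, SIX6, RAX and LHX2 had none there in either list. H3K4me1 of both lists lay at an end of 6 of the 9, PAX6, OTX2, OTX1, RAX, LHX2 and MEIS2, against 63.9% of the protein-coding genes. SIX3 had it in list 2 only, MEIS1 had it at one end in list 1 and at the other end in list 2, and SIX6 had none. At this setting both shares are near those of the other genes. With peaks above the median -log10 q of their list, Pol II stayed at 3 members against 27.0% of the protein-coding genes, and H3K4me1 fell to 1 member, LHX2, against 38.2%. All 3 Pol II regions at ends also lay within 2 kb of an end of another gene, and with such peaks left out 0 members and 17.0% of the protein-coding genes kept Pol II at an end. By the same exclusion RAX, LHX2 and MEIS2 kept H3K4me1 at an end, 3 of 9 against 32.9%.

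**Figure D1:**
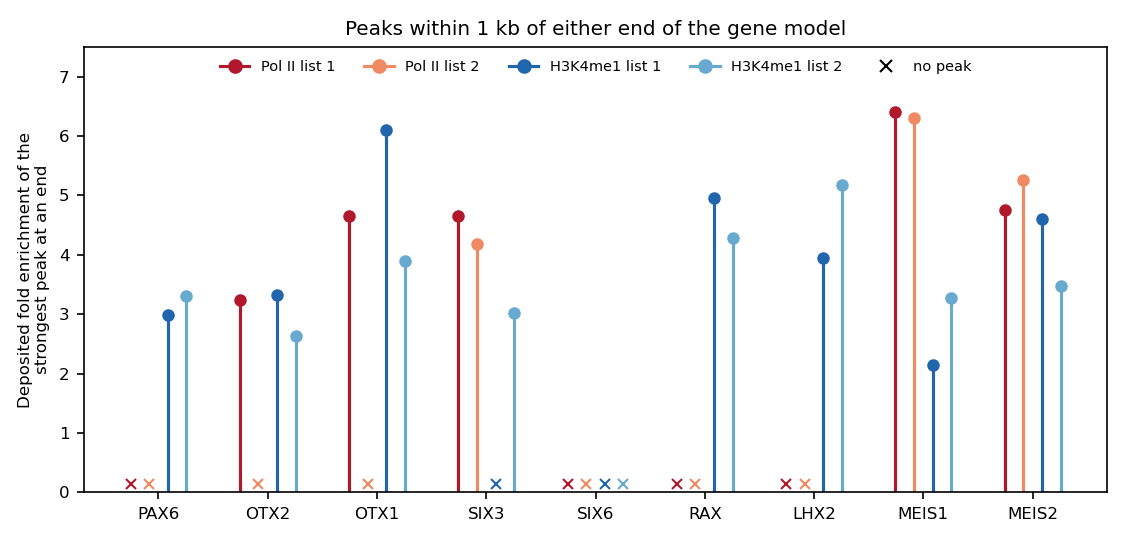
Deposited fold enrichment (vertical axis, no unit) of the strongest peak within 1 kb of either end of each gene model, for the 2 Pol II and 2 H3K4me1 lists, with a cross where a list has no peak. MEIS1 has the highest Pol II values, 6.41 and 6.31, beside the lowest H3K4me1 value, 2.14, and SIX6 has 4 crosses.

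MEIS1, a TALE partner of PBX and HOX proteins, had the strongest Pol II peaks at an end. The region chr2:66434409-66435427 had a fold of 6.41 in list 1 and 6.31 in list 2, with -log10 q of 10.7 and 16.7. Its summits lay 46 and 26 bp upstream of the one listed start, at 66435125, that is, within the letters shown for MEIS1. The start itself was under no H3K4me1 peak of either list, and the nearest H3K4me1 peak had a fold of 2.14 in list 1, with its summit 776 bp from the start, and lay 2042 bp away in list 2. The antisense lncRNA MEIS1-AS3, on the minus strand, has its 5′ end 1.66 kb upstream of the gene and 939 bp from that Pol II region. The peak of list 2 reached within 1 kb of this 5′ end as well. The Pol II summits were 1609 and 1629 bp from the 5′ end of MEIS1-AS3, farther than from that of MEIS1.

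MEIS2, its paralogue on chromosome 15, had a fold of 4.75 and 5.26 at its 5′ end (chr15:37101067-37101949, -log10 q 8.14 and 16.7). The summit was at the same base in both lists, 343 bp outside the gene model, 2548 bp from the nearer of the 2 listed starts and 2406 bp from the nearest other gene end. That other end belongs to LOC124903465, a lncRNA on the opposite strand that overlaps the 5′ part of MEIS2. H3K4me1 covered part of the same region with a fold of 4.6 and 3.48, so MEIS2 was the member with both targets in both lists at one end. Both of its listed starts lie inside the gene model, 2205 and 2615 bp from that end, and neither had a peak of either target within 1 kb.

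SIX3, a repressor needed for forebrain and eye identity, had Pol II at its lower-coordinate end (chr2:44941612-44942104) with a fold of 4.66 and 4.18 and -log10 q of 13.5 and 18.3. SIX3-AS1, a lncRNA on the minus strand, overlaps this end of the SIX3 model, and its own end was 9 and 11 bp from the Pol II summits, against 185 and 187 bp for the end of SIX3. From the peak lists, Pol II of SIX3 and of SIX3-AS1 cannot be told apart. H3K4me1 at this end was in list 2 only, with a fold of 3.02.

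OTX2 and OTX1, relatives of the bicoid homeodomain, had Pol II that did not recur between the lists. At the outermost OTX2 start the peak of list 1 had a fold of 3.24 and -log10 q of 1.95, with its summit 44 bp upstream. List 2 instead had a peak of fold 3.19 whose summit lay 391 bp from the inner OTX2 start at 56805667. OTX1 had a peak of fold 4.65 in list 1, with its summit 416 bp upstream of the start at 63050830, and no Pol II peak anywhere in its locus in list 2. H3K4me1 recurred at both genes, with folds of 3.33 and 2.64 at the 5′ end of OTX2 and 6.11 and 3.9 at OTX1. At OTX2 the summits lay 1948 and 999 bp from the outermost start, with -log10 q of 6.35 and 2.28. At OTX1 they were at different bases, 63050510 in list 1 and 63049392 in list 2. The OTX2 H3K4me1 region (chr14:56811227-56812706) overlaps the end of OTX2-AS1, a lncRNA on the opposite strand. The one at OTX1 (chr2:63049058-63051718) was 2661 bp long, wider than 99.0% of the 104482 H3K4me1 regions. That width comes from merging, since its peaks were 365 and 1467 bp in list 1 and 1766 and 258 bp in list 2.

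RAX, LHX2 and SIX6 had no Pol II at an end or start in either list. RAX, the retina and anterior neural fold homeobox gene, had H3K4me1 over its start with folds of 4.96 and 4.29 and summits 96 and 103 bp upstream. LHX2, a LIM homeobox gene needed for the optic vesicle, had H3K4me1 over its start with folds of 3.94 and 5.17, and its summit lay 121 bp upstream in both lists. Their nearest Pol II summits were 84.6 and 39.6 kb from the RAX start and 43.1 kb from the LHX2 start in both lists. At SIX6, a regulator of retinal progenitors and the pituitary, the nearest Pol II summit was 61.8 kb away in list 1 and 114 kb in list 2, and the nearest H3K4me1 summit 53.2 kb in both. C14orf39, which overlaps SIX6 on the opposite strand, had no peak of either target at its ends either.

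PAX6, the paired box and homeobox gene at the top of eye development, showed how much the end rule depends on the gene model. Nothing lay over its outermost start, where H3K4me1 within 1 kb had folds of 2.98 and 3.3 and the nearest Pol II summits were 5.59 and 5.38 kb away. Of the 9 listed starts, 2 inner ones did carry Pol II in both lists. At 31806001 the folds were 4.55 and 3.44 (chr11:31805461-31806195), with summits 12 and 63 bp upstream and H3K4me1 of 3.96 and 3.26 over the same base. At 31812720 they were 3.02 and 2.62 (chr11:31812201-31812793), with summits 354 and 144 bp downstream and H3K4me1 of 3.75 and 2.63. Both regions were weak, with mean folds at rank percentiles 15.3 (31806001) and 2.69 (31812720) of all Pol II regions. Their -log10 q was 8.28 and 7.92 at the first and 2.43 and 2.56 at the second. The strongest Pol II region within the gene (chr11:31810924-31811491, folds 6.99 and 4.48, -log10 q 20.1 and 14.2) lay at no listed start, the nearest being 1156 bp from a summit. With starts in place of ends, Pol II of both lists lay within 1 kb for 2 of the 8 members with a start, MEIS1 and PAX6, against 42.2% of the protein-coding genes with one. H3K4me1 did so for 5 of the 8, PAX6, OTX2, OTX1, RAX and LHX2, against 65.0%.

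Away from the ends, Pol II regions lay inside or beside 5 of the 9 genes. The loci held 18 Pol II regions in all, of which 3 were at an end, 8 inside a gene model and 7 in a flank. They were 4 at PAX6, 5 at SIX3, 1 at LHX2, 4 at MEIS1 and 4 at MEIS2, and the loci of OTX2, OTX1, SIX6 and RAX held none. With ends included, a Pol II region overlapped the gene model in PAX6, SIX3, MEIS1 and MEIS2, 4 of 9 against 51.3% of the protein-coding genes. At SIX3 this was only the region at its end. H3K4me1 regions were more numerous, 68 in all, with 16 at MEIS2, 12 each at SIX3 and MEIS1, 9 at LHX2, 5 each at PAX6 and RAX, 4 each at OTX2 and OTX1 and 1 at SIX6. They overlapped the gene model of 7 members, all but SIX3 and SIX6, against 75.4% of the protein-coding genes.

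**Figure D2:**
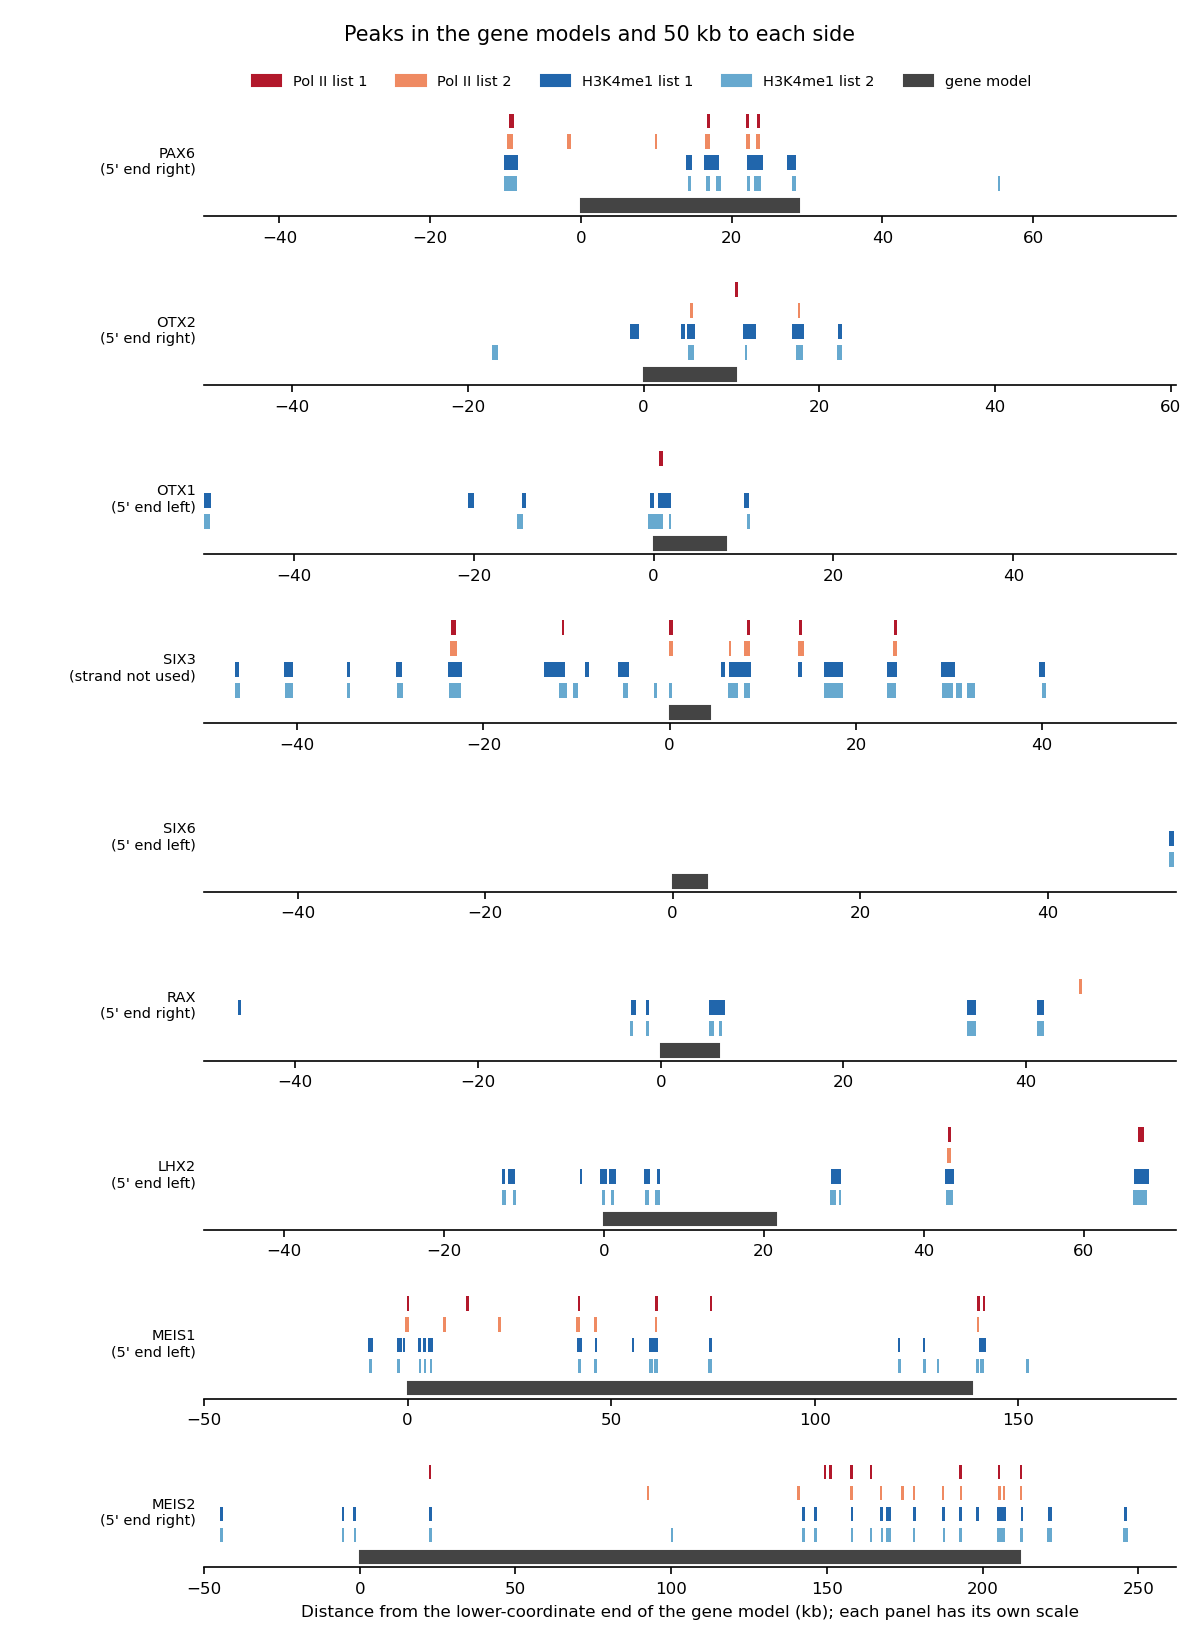
Peaks of the 4 lists along each locus, as distance in kb from the lower-coordinate end of the gene model (horizontal axes, each panel on its own scale), with the gene model as a dark bar. The narrowest peaks are drawn wider so that they can be seen. Pol II marks sit inside PAX6, MEIS1 and MEIS2 and around SIX3, while the SIX6 panel shows 1 H3K4me1 peak per list, 49.5 kb beyond the gene.

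The strongest Pol II region of the loci by mean fold was not at a promoter of a member but 21.6 kb beyond the 3′ end of LHX2. It spans chr9:124054711-124055172, within the lncRNA LOC107987037 and 19.1 kb from an end of it, and had folds of 12.2 and 8.68 (-log10 q 19.3 and 13.3). Its mean fold exceeded that of 94.9% of all 30981 Pol II regions, and its summit was at base 124054883 in both lists. H3K4me1 there had folds of 11.3 and 13.6, above 99.2% of all H3K4me1 regions, while the start of LHX2 itself had no Pol II in either list. Another site 45.8 kb beyond the gene (chr9:124077916-124079893) had H3K4me1 folds of 8.06 and 7.55 and a Pol II peak of fold 8.55 in list 1 only.

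MEIS2 held the strongest Pol II region inside a member, 54.2 kb into the gene from its 5′ end. It spans chr15:37046751-37047403 and had folds of 10.3 and 9.48, above 93.2% of all Pol II regions and higher in both lists than the 4.75 and 5.26 at the 5′ end of the gene. H3K4me1 folds there were 5.84 and 9.63. Of the other 2 internal regions, the one 19.2 kb from the 5′ end (chr15:37081723-37082530) had Pol II folds of 6.49 and 4.24. H3K4me1 covered it over almost the same bases, with folds of 8.84 and 7.71. The one 6.5 kb from the end had Pol II folds of 4.16 and 2.72, inside the widest H3K4me1 region of the gene, 2915 bp and wider than 99.5% of all. The strongest H3K4me1 region of MEIS2 lay near its 3′ end (chr15:36911379-36912397, folds 11.9 and 10.7) and had Pol II in list 1 only, at 4.6.

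MEIS1 had 2 internal Pol II regions. The one 61.1 kb into the gene (chr2:66495785-66496459) had folds of 6.62 and 8.18 and an H3K4me1 fold of 8.89 in both lists. Its Pol II fold was near that of the MEIS1 start in list 1 and above it in list 2. The one 42.2 kb into the gene had Pol II folds of 4.27 and 4.45 and H3K4me1 folds of 4.49 and 5.36. A region 1.45 kb past the 3′ end (chr2:66574992-66575472) had folds of 3.17 and 4.59. It lay inside the lncRNA LINC01798, 962 bp from the end of that lncRNA that is 161 bp beyond MEIS1. Further H3K4me1 regions inside the gene had similar or higher folds but had Pol II in one list at most. At chr2:66508982-66509959 the H3K4me1 folds were 9.79 and 8.66, with Pol II of 5.67 in list 1. At chr2:66480951-66481655 they were 8.07 and 7.98, with Pol II of 3.59 in list 2.

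The flanks of SIX3 were the most densely marked of the 9. H3K4me1 peaks covered 15.9% of the locus in list 1 and 13.4% in list 2, higher than in 98.2% and 99.1% of protein-coding genes, although no H3K4me1 region overlapped the gene model. The strongest Pol II region lay 23.0 kb below the lower-coordinate end (chr2:44918138-44918891), with folds of 8.53 and 7.15, above 81.4% of all Pol II regions, and H3K4me1 folds of 9.44 and 8.82. Past the other end Pol II regions lay 3.94, 9.69 and 19.8 kb away, with folds from 2.96 to 4.04 in list 1 and from 2.51 to 3.4 in list 2. The first of them sat in the widest H3K4me1 region of the locus (chr2:44947993-44950466, 2474 bp, folds 3.68 and 4.45).

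The paralogue SIX2 lies 59.1 kb away on that side and had Pol II at an end with folds of 6.48 and 7.3, so part of the SIX3 flank is also flank of SIX2. The interval between SIX3 and SIX2 held 3 Pol II and 5 H3K4me1 regions, and H3K4me1 covered 14.6% and 13.3% of it.

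In the PAX6 locus the one flanking Pol II region lay 9.46 kb beyond the 3′ end, inside ELP4 (chr11:31779190-31780093, folds 6.02 and 4.75). It coincided with the strongest H3K4me1 of the locus, 10.8 and 10.4, against at most 3.96 within the gene. ELP4, a subunit of the Elongator complex, overlaps the 3′ end of PAX6 and had Pol II folds of 4.56 and 5.34 at its own far end, so the region lies in the body of a gene with Pol II. The antisense lncRNAs PAX6-AS1 and PAUPAR had no Pol II at an end in either list.

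Strong H3K4me1 without Pol II was found beside RAX and OTX1. In the RAX locus the regions chr18:59300556-59301578 (folds 11.8 and 7.17) and chr18:59308186-59309013 (8.23 and 6.42) lay inside CPLX4, a complexin gene of the retina that had neither target at its ends. Their distances from the 5′ end of RAX were 27.5 and 35.1 kb, and both exceeded the 4.96 and 4.29 at the RAX start. In the OTX1 locus the strongest region (chr2:62998640-63000567, folds 9.67 and 9.37) lay 49.6 kb from the gene, inside EHBP1, which had H3K4me1 but no Pol II at an end. The locus of OTX2 had no H3K4me1 fold above 5.15.

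How often Pol II in these loci lay on H3K4me1 was set beside the share over all Pol II regions. Of the 18 Pol II regions 15 overlapped an H3K4me1 region, 83.3% with an exact (Clopper-Pearson) 95% interval of 58.6 to 96.4% for counting error only, against 87.7% of all Pol II regions. By place they were 8 of 8 inside gene models, 6 of 7 in flanks and 1 of 3 at ends. All 18 overlapped an H3K4me1 peak of at least one list. At the MEIS1 end this was only an edge overlap between lists, of the Pol II peak of list 2 with an H3K4me1 peak of list 1. In the other direction 14 of the 68 H3K4me1 regions held a Pol II region, 20.6% (11.7 to 32.1%), against 25.8% of all H3K4me1 regions. With above-median peaks of both targets, 5 of 11 Pol II regions in the loci lay on H3K4me1, 45.5%, against 81.4% of 18079 such regions over the whole lists. That share rests on 11 regions and is given without an interval, and the 81.4% was added after seeing the data. At the other 6 of 7 alternative settings the share in the loci stayed within 58.6 to 96.4%. With all peaks, the 3 Pol II regions not on an H3K4me1 region were the ends of SIX3 and MEIS1 and the SIX3 flank at chr2:44955501-44956178.

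**Figure D3:**
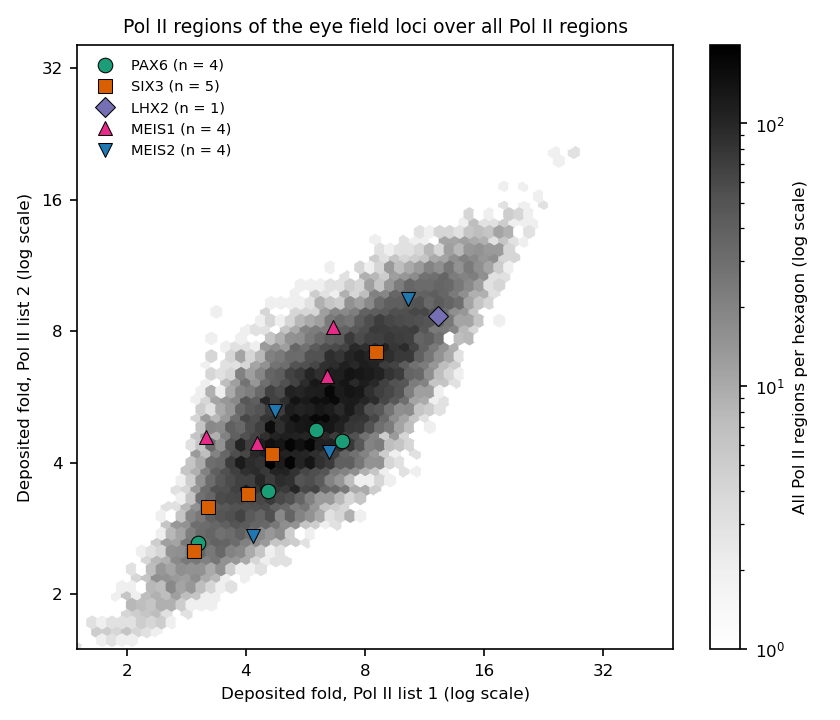
Deposited fold of each Pol II region in list 1 (horizontal, log scale) and list 2 (vertical, log scale), with all 30981 regions as shaded hexagons and the 18 regions of the loci as coloured symbols. The LHX2 flank (12.2 and 8.68) and one MEIS2 region (10.3 and 9.48) lie in the upper part of the cloud, and most of the others in its lower part.

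Peaks in the loci were weaker than the lists as a whole. Pol II peaks had a median fold of 4.6 (list 1) and 3.51 (list 2), beside 5.13 and 4.47 over all peaks, and the median H3K4me1 fold was 4.01 and 4.06 beside 4.78 and 4.89. Of the 18 Pol II regions, 12 had a mean fold below the median of all Pol II regions. Pol II peaks of the loci recurred in the other list in 18 of 29 cases for list 1 (62.1%, against 66.1% of all peaks) and 18 of 35 for list 2 (51.4% against 65.8%). For H3K4me1 69 of 80 (86.2%) and 77 of 88 (87.5%) recurred, against 86.2% and 87.2% of all. Of the 28 Pol II peaks found in one list only, 17 lay inside MEIS1 or MEIS2. These gene models make up 26.3% of the bases of the loci but hold a larger share of all their Pol II peaks. With ends included, MEIS1 and MEIS2 held 5 and 8 of the 29 peaks of list 1, and 7 and 11 of the 35 of list 2. Of the 22 H3K4me1 peaks found in one list only, 5 lay there.

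Over whole loci, H3K4me1 covered more bases than Pol II in both lists. Pol II peaks covered 0.862% of the 9 loci in list 1 and 1.24% in list 2, and H3K4me1 peaks 5.75% and 4.59%. Both H3K4me1 lists were above both Pol II lists. Median locus coverage of protein-coding genes had the same order, 5.81% and 4.88% for H3K4me1 against 1.09% and 1.53% for Pol II. The order is therefore not particular to the members. The difference in means was 4.12 percentage points, with a two-sided exact permutation p of 0.333, the smallest that 2 lists against 2 can give, so the design cannot pass 0.05. Where the R numbers do not mark separate cultures, which the labels do not say, such a p measures only the spread between lists.

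Pol II coverage per locus was highest at SIX3 and 0 at SIX6 in both lists. From highest to lowest in list 1 the values were 1.87% for SIX3, 1.43% for PAX6, 1.25% for MEIS2, 0.919% for MEIS1, 0.87% for LHX2, 0.347% for OTX1, 0.17% for OTX2 and 0 for RAX and SIX6. List 2 gave 3.16% for SIX3, 2.57% for PAX6, 1.67% for MEIS2, 1.46% for MEIS1, 0.425% for OTX2, 0.34% for LHX2, 0.305% for RAX and 0 for OTX1 and SIX6. The first 4 kept their order and the others changed places between the lists, and the difference between lists within SIX3, 1.87 and 3.16%, was larger than that between SIX3 and PAX6 within either. The protein-coding medians were 1.09% and 1.53%, with SIX3, PAX6 and MEIS2 above them in both lists. A locus with no Pol II base is not rare, since 16.7% and 16.1% of the protein-coding genes had none.

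H3K4me1 coverage set SIX3 and SIX6 apart from the other 7 in both lists. The lowest was SIX6 with 0.461% and 0.515%, at rank percentiles 9.6 and 10.6 of the protein-coding genes. The 7 others lay between 4.02% (OTX1) and 7.13% (LHX2) in list 1 and between 2.89% (OTX2) and 5.19% (LHX2) in list 2. Those intervals hold the protein-coding medians of 5.81% and 4.88%. LHX2 was the highest of the 7 in both lists, and the order of the other 6 differed between them. Those values were 6.25% and 4.28% at PAX6, 5.25% and 4.19% at MEIS1, 5.16% and 2.89% at OTX2, 5.02% and 4.76% at MEIS2, 4.48% and 3.05% at RAX and 4.02% and 3.35% at OTX1. List 1 was above list 2 at each of them.

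**Figure D4:**
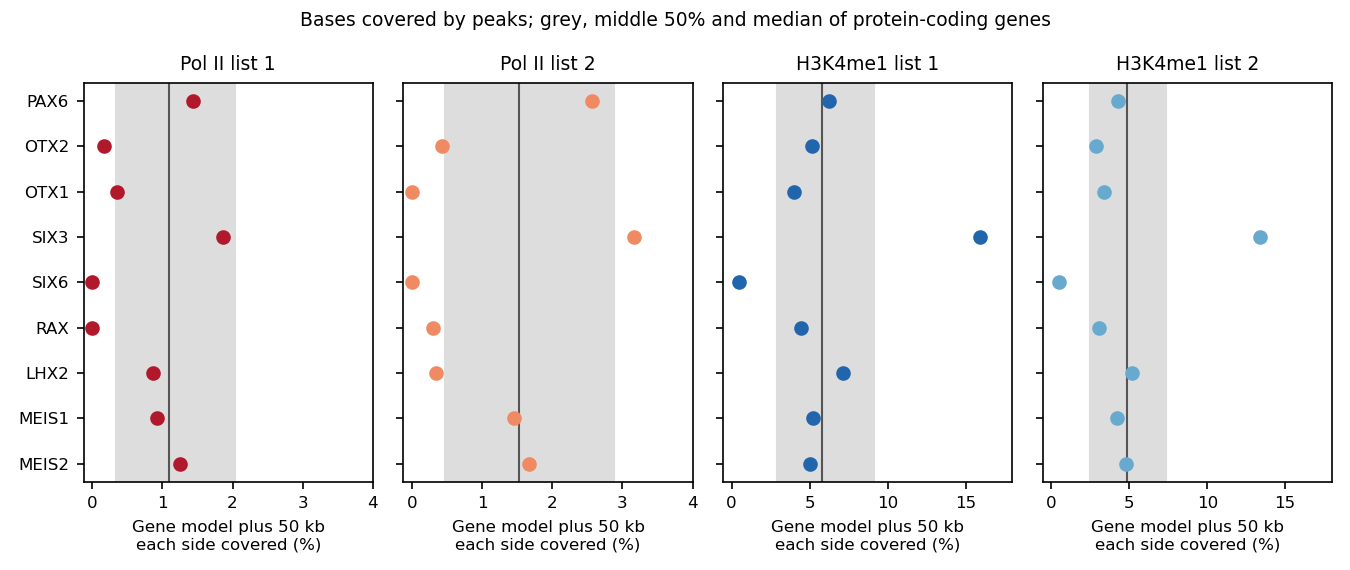
Percent of each gene model plus 50 kb to each side that is covered by peaks (horizontal axes), one panel per list and one point per gene, with the middle 50% of protein-coding genes in grey and their median as a line. SIX3 stands far to the right in both H3K4me1 panels, at 15.9% and 13.4%, and SIX6 at the left of all 4.

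The genes whose coverage was most like that of each member with Pol II at an end or inside were found by the mean absolute difference in rank percentile over the 4 lists. For PAX6 they were LARP4B (2.06 points) and CAMKK2 (2.23), for SIX3 CPLX3 (0.851) and GNLY (0.866), for MEIS1 CLUAP1 (1.37) and LOC124903405 (1.4), and for MEIS2 PLIN1 (1.11) and DNAH17 (1.12). OTX2, with Pol II in 1 list, was nearest to SCUBE1 (1.13) and L1CAM (1.51), and OTX1 to SGCB (0.7) and RLN2 (0.706).

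The promoters of the members were compared with all others by their letters. Over the 300 bases around a start, the 18 member promoters had a median GC content of 62.5%, from 47.3 to 69.7%, beside 58.7% over all 35114 promoters of the table. Their median ratio of observed to expected CpG was 0.63 beside 0.579. On either strand, 0 of the 18 held TAATCC (the bicoid-type site of OTX proteins, in 6.36% of all promoters), TAATTA (the homeodomain core, 4.84%) or TATAAA (the TATA box, 11.5%). TGACAG, the core of MEIS sites, was in 4 of 18, against 15.8% of all promoters. GGGCGG, the GC box, was in 9 of 18, against 45.0%. TAATCC and TAATTA share their first 4 letters and TAATTA reads the same on both strands. Of the 18 promoters 9 belong to PAX6, so they are not independent genes.

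The MEIS1, RAX and LHX2 promoters held none of the 5 motifs, although they differ in the targets they carry. SIX6, without a peak of either target, held TGACAG 46 bases and the reverse complement of GGGCGG 11 bases before its start, the capitals in its letters above. The OTX1 promoter held 6 GGGCGG matches and 1 of TGACAG. The outermost PAX6 promoter held the reverse complement of GGGCGG 129 bases before the start. A match describes letters in the window and says nothing of binding.

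Of 57 related genes listed with the members, 17 had recurring Pol II at an end, 3 had it in one list and 37 in none, and 29 had H3K4me1 of both lists. That is 29 of 57 where 63.9% of all protein-coding genes had H3K4me1, and 17 of 57 where 39.4% had Pol II. Cofactors and partners had Pol II in 6 of 16. They included PBX3, a TALE partner of MEIS proteins (7.05 and 5.03), and PKNOX1, a TALE protein related to MEIS (8.59 and 7.2). EYA3, a coactivator for the family of SIX3 and SIX6, had 8.09 and 5.94, and the corepressors TLE1 and TLE3 had 5.14 and 2.91 and 5.1 and 5.05. Among paralogues 4 of 11 had it. They included SIX2, given above, SIX4 (4.62 and 3.71) and SIX5 (3.8 and 4.75). The SIX5 summit was 129 bp from an end of DMPK and 336 bp from its own.

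Other regulators of the eye field, optic cup and retinal progenitors had Pol II in 3 of 16. These were ATOH7, the ganglion cell determinant (6.34 and 5.3), the Notch target HES1 (4.5 and 3.35) and TBX2 (6.79 and 4.9). Regulators of pigment epithelium and lens had it in 4 of 14, the orphan receptor NR2F1 (7.37 and 4.65), PITX3 (5.58 and 4.02), SOX9 (5.92 and 3.51) and TFE3 (5.36 and 5.42). The PITX3 summit was 95 bp from an end of GBF1 and 359 bp from its own, and that of PBX3 was 207 bp from an end of PBX3-DT and 1237 bp from its own. The share was below the 39.4% of all protein-coding genes in each of the 4 groups, which is given as a description.

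Markers of the labelled cell type were read with the same rule. Of 14 genes of the pigment epithelium 4 had recurring Pol II at an end, against 39.4% of all protein-coding genes, and 7 had recurring H3K4me1, against 63.9%. RPE65 and LRAT of the visual cycle, TTR and the pigment enzymes TYR, TYRP1 and DCT had neither target there in either list. RLBP1 (8.01 and 6.38), SERPINF1 (7.64 and 5.4) and MLANA (5.58 and 7.36) had H3K4me1 without Pol II, and BEST1 had Pol II in list 2 only. The 4 with Pol II were PMEL, SLC45A2, KRT8 and KRT18. KRT8 and KRT18 share one peak, and the PMEL summit was 69 bp from an end of CDK2. These 2 keratins were listed with the pigment epithelium and not with the surface or simple epithelium, and the counts of both groups depend on that. Pol II was at an end of 1 of 8 neural retina and photoreceptor genes (NRL, with its summit 104 bp from DCAF11). It was there in 3 of 5 neuronal and 5 of 7 mesenchymal genes, and in 0 of 5 surface or simple epithelial genes. Blood genes had it in 0 of 3. Among the mesenchymal genes, the VIM summit was 708 bp from an end of VIM-AS1 and 1036 bp from its own. Those of COL1A1, TAGLN, CDH2 and FN1 were 1256, 1048, 649 and 40 bp from their own ends, nearer than to another gene. The relation of the marker genes to the eye field genes was not tested.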

How the data were processed

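The 4 CUT&Tag peak lists of hTERT-RPE1 cells were used, 1 per target and R number, on hg38. Per the submitters' processing notes BWA, SICER and deepTools were used, without roles or versions. Not given in the sources used here are the peak caller, its threshold and any control. The authors deposited a ratio per peak, the fold enrichment in column 7. The deposited -log10 q value in column 9 and the summit offset in column 10 were also used. No read counts are held, so depth is unknown and intervals cover counting error only.

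Scripts ran in Python 3.11.15, with scipy 1.17.1, pandas 2.3.3 and numpy 2.4.6 for the values and matplotlib 3.10.9 for the figures. Peaks of both lists were merged into regions at an overlap of 1 bp or more, and the 10 libraries entered as 4 lists. Gene models and starts came from RefSeq (GRCh38.p14). Percentiles are ranks among protein-coding genes or among all regions of a target. The end, flank, overlap, threshold and neighbour rules were varied, and the counting was tested on simulated data. Replicate numbers pair lists only by label.

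The members, related genes and markers were chosen with earlier results of these data known. Named in each locus were the 3 Pol II regions of highest mean fold, the widest H3K4me1 region, overlapping or marked neighbours, related genes with recurring Pol II and the 2 most alike genes. Other regions, single-list peaks and the paired intervals were named after their values were seen. Some genes that this rule names are left out of the text.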

Additional observations from a re-analysis of the deposited data

How the results depend on the processing

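The number of members with Pol II at an end stayed at 3 with above-median peaks, windows of 500 bp or 2 kb and a 50% overlap. It was 3 without list 1, 5 without list 2, and 0 without peaks within 2 kb of an end of another gene. For H3K4me1 the 6 became 1 with above-median peaks, and 3 without peaks near other genes. It was 5 at 500 bp, 8 at 2 kb, 7 with a 50% overlap, 8 without list 1 and 7 without list 2. The main end rule sets no overlap between the lists, so the 50% setting is a different rule and can raise a count. With above-median peaks 11 Pol II and 20 H3K4me1 regions remained in the loci, and 45.5% of these Pol II regions lay on H3K4me1, against 81.4% over the whole lists, a share added after seeing the data. One Pol II list alone gave 29 to 35 regions, since recurrence was no longer required.

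The share of protein-coding genes with Pol II at an end was 27.0% with above-median peaks, 34.5% at 500 bp, 44.6% at 2 kb, 38.3% with a 50% overlap and 43.7 to 47.4% with one list left out. It was 17.0% without peaks near other genes, an alternative chosen after seeing the data. For H3K4me1 the same settings gave 38.2%, 57.0%, 70.7%, 64.7%, 65.2 to 71.0% and 32.9%. All of these shares lay outside the counting interval of the main shares, which is narrow for 19974 genes. The largest moves, for both targets, came with above-median peaks and without peaks near other genes. The count of members with a Pol II region overlapping the gene model, ends included, stayed within 3 to 6. The difference in coverage ranged from 2.09 to 4.99 points over 7 alternatives. With the R number as a replicate block (exact sign-flip over 2 pairs) it was 4.12 with p = 0.5, the smallest that design gives, and no other result here has a test to pair. Flanks of 25 kb and 100 kb left 18 and 20 Pol II regions. Each list's depth is unknown, so a missing peak may be a site below detection.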
